A study of Mus musculus with 6 samples.

Results

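Glucose uptake and glycolysis were followed through 10 genes, chosen by symbol: the glucose transporter Slc2a1, the glycolytic enzymes Hk1, Hk2, Pfkl, Pfkp, Aldoa, Pgk1, Pgam1 and Pkm, and the lactate dehydrogenase Ldha. All 10 were among the 24421 symbols of the count tables, and all 10 were abundant enough to be tested, within the 13848 genes that passed a filter on low counts. The study sampled C57BL/6N mice at embryonic day 9.5, with whole embryo as the tissue on the labels, and made 6 libraries: 3 labelled as homozygous for a knockout of Lphn2 and 3 labelled wild type. Lphn2, now named Adgrl2, encodes the adhesion receptor latrophilin-2, which the series presents as a marker on the surface of cardiac progenitors. No other allele or treatment is given for either group. The extent of the deletion is not on the labels, nor is it stated that each library is 1 embryo from its own litter, so the p-values reflect differences among these 6 samples that could be technical.

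Cells take up glucose through facilitative transporters of the Slc2a family, and hexokinase traps it as glucose 6-phosphate. Phosphofructokinase makes the committed step, aldolase splits the sugar, and phosphoglycerate kinase and pyruvate kinase return ATP. Lactate dehydrogenase A turns pyruvate into lactate and restores the NAD that the pathway consumes, which lets glycolysis run when oxygen is short or growth is fast. Early mouse embryos, the placenta and the decidua, the transformed uterine lining around the implantation site, are all known as heavy users of glucose, and hypoxia-inducible factors are known to drive many of these genes.

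None of the 10 genes passed the quasi-likelihood test of edgeR at a Benjamini-Hochberg adjusted p under 0.05, where 0% of all genes tested were called higher and 0.0505% lower. With an unadjusted p below 0.05 there were 3 of the 10 on the higher side (Hk2, Pfkp and Pgk1) and 0 on the lower side, against 8.68% of all genes higher and 6.86% lower. The count on the higher side was 1 with DESeq2, with its size factors or with a stricter filter on low counts, and 1 to 4 when 1 library was left out. Without knockout replicate 1 there was also 1 on the lower side, Slc2a1. For these alternatives the shares of all genes by unadjusted p are not given, so their counts have no background to be read against. Hk2 had the largest difference among the 10, with a mean in the knockout close to 1.98 times that in wild type. Every knockout value lay above every wild type value for Hk1, Hk2, Pfkp and Pgk1, 4 of the 10, beside 12.1% of all genes tested. For 0 of the 10 did every knockout value lie below, beside 9.39% of all genes. The median log2 fold change of the 10 was 0.24, and that of all genes tested was -0.039. DESeq2 called 1 of the 10, Hk2, against 3.39% of all genes higher and 2.79% lower. Without knockout replicate 1, edgeR also called Hk2 alone of the 10, against 1.77% of all genes higher and 3.27% lower.

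**Figure D1:**
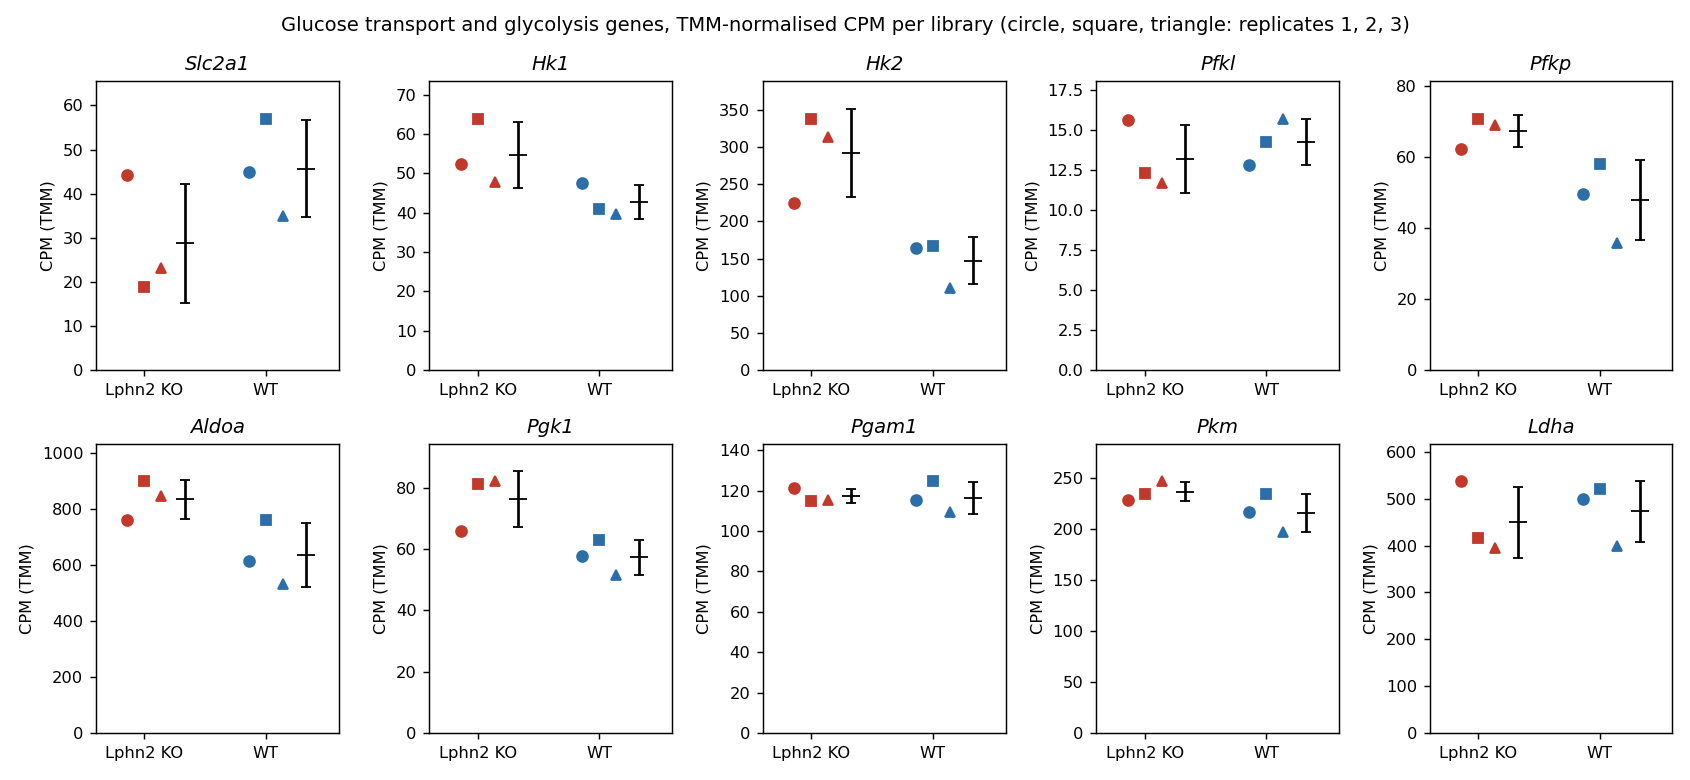
TMM-normalised counts scaled to library size (CPM) of the 10 genes, 1 panel each, on axes that start at 0. Circles, squares and triangles are replicates 1, 2 and 3 of the Lphn2 knockout (red, left) and wild type (blue, right), and black bars give mean ± SD of 3 libraries. The groups do not overlap for Hk1, Hk2, Pfkp and Pgk1, and for Slc2a1 knockout replicates 2 and 3 lie below the other 4 libraries.

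Total counts were 14476809 to 23887717 in knockout and 18352150 to 36213611 in wild type libraries, and the 10 genes had between 164 and 20442 counts in any library. Adgrl2 itself stood at 5.49, 1.67 and 2.78 CPM (replicates 1 to 3) in the knockout, against 10.9, 7.56 and 15.96 CPM in wild type. Tags from the 3' end can lie outside a deleted part, which makes them no check of the genotype. The libraries did not hold the transcripts of an embryo alone. All 14 markers of the decidua were above 0 in every library. Their sum was 7174 to 11890 CPM in knockout and 20882 to 37670.5 CPM in wild type libraries. Prl8a2 made up 65.9% of the sum pooled over all libraries. It stood at 2900, 1279 and 5335 CPM in knockout replicates 1, 2 and 3, against 14989 to 28746 CPM in wild type. Other members of that list went the other way: 8 of its 14 genes had a positive log2 fold change, and the median was 0.71. Of 16 trophoblast markers, 8 were above 0 in every library. The sum over all 16 was 3905, 54.5 and 149 CPM in knockout replicates 1, 2 and 3, against 1466 to 6143 CPM in wild type. Markers of the heart and of neural tissue were scarce. The 12 cardiomyocyte markers summed to 7.20 to 22.5 CPM in knockout and 42.8 to 441 CPM in wild type libraries, and Nkx2-5 was at 0 in all 3 knockout libraries and between 0 and 0.52 CPM in wild type. The 12 neural progenitor markers summed to 8.13 to 22.9 CPM in knockout and 23.3 to 180 CPM in wild type libraries. Across all genes tested, knockout replicate 1 had a correlation of 0.956 with wild type replicate 1 and of 0.909 and 0.913 with knockout replicates 2 and 3. The fold changes of the 10 genes are therefore also plotted without knockout replicate 1 and with that replicate alone. In such mixed tissue, fewer cells of a type and less RNA per cell cannot be told apart.

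**Figure D2:**
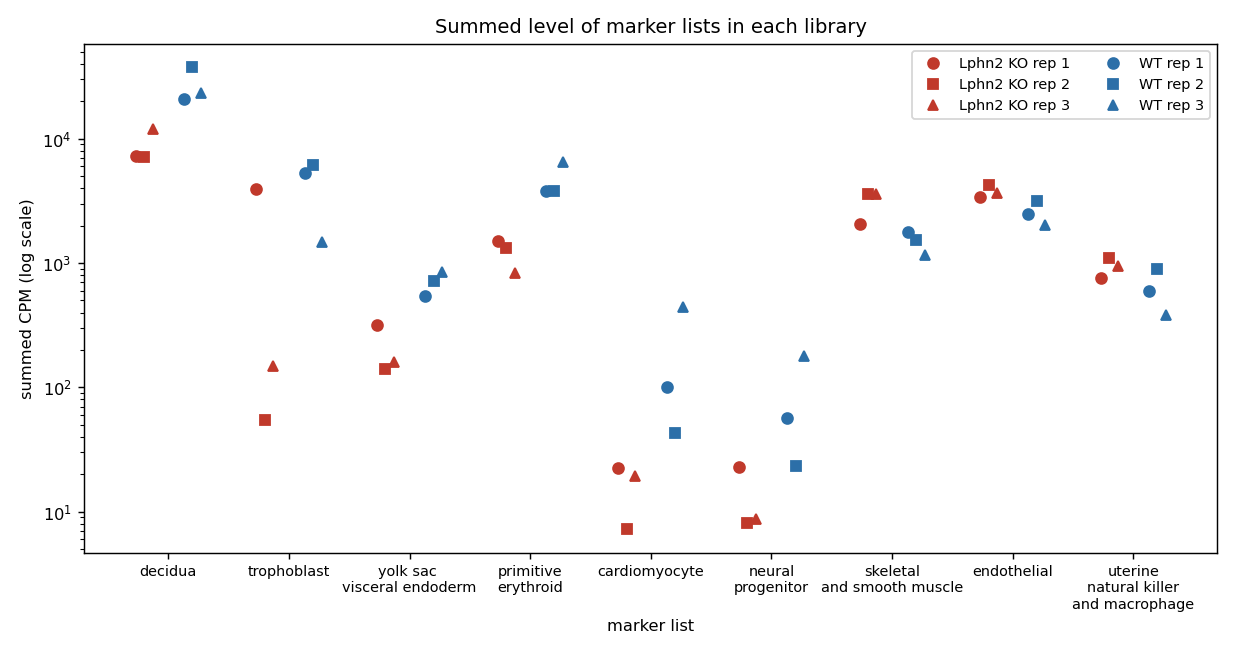
Summed CPM (log scale) of 9 lists of cell type markers in each library, knockout in red to the left of wild type in blue, with circles, squares and triangles for replicates 1, 2 and 3. Trophoblast markers summed to 54.5 and 149 CPM in knockout replicates 2 and 3 and to 3905 CPM in knockout replicate 1. The decidual sum lay below every wild type library in all 3 knockout libraries. Prl8a2 made up 65.9% of the decidual sum pooled over all libraries.

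Because hypoxia-inducible factors are known regulators of this pathway, the windows from 250 bases before to 50 after the annotated starts of the 10 genes (RefSeq, GRCm38.p6, the assembly of mm10) were searched on both strands for ACGTG, the core of the hypoxia response element. All 10 symbols matched, with 15 windows. A match was found in 9 of the 15 windows, those of Slc2a1, Hk1, Hk2, Aldoa (overlapping windows), Pgk1, Pgam1, Pkm and Ldha, against 19.6% of the 32851 windows of all genes. For Hk1 the matches lay after the start, and Pfkl and Pfkp had none. The E-box CACGTG, which contains the core, stood in 1 of the 15 windows, that of Ldha (7.15% of all windows), and the GC box GGGCGG in 10 of the 15 (35.7% of all windows). These matches describe the letters and are no evidence of binding. The first 4 genes in pathway order with a match before the start are shown for those 250 bases, 5′ to 3′ on the gene's strand, with each match in capitals (CACGT is the core on the other strand). The windows are chr4:119108495-119108744 (plus strand) for Slc2a1, chr6:82774455-82774704 (minus strand) for Hk2, chr7:126799255-126799504 (minus strand) for the second Aldoa window and chrX:106186850-106187099 (plus strand) for Pgk1.
Slc2a1: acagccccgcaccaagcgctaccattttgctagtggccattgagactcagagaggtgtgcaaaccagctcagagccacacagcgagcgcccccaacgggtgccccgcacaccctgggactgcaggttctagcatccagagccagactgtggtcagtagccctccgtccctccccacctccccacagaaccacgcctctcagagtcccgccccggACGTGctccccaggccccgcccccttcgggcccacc
Hk2: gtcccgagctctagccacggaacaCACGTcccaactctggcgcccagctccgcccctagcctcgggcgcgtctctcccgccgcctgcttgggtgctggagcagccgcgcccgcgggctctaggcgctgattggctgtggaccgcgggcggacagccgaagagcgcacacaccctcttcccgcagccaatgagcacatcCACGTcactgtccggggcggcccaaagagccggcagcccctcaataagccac
Aldoa: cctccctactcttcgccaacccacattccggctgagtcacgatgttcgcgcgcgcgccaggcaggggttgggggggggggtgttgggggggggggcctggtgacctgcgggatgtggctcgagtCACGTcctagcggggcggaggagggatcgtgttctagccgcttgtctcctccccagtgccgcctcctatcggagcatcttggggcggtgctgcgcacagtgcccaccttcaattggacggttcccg
Pgk1: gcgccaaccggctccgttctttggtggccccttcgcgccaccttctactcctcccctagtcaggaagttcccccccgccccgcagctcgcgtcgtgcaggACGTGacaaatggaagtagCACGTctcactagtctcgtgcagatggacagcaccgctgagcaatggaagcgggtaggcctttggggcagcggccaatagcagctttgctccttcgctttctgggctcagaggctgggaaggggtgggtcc
In Slc2a1 the match began 36 bases before the start, in Hk2 226 and 52 bases before it, in Aldoa 126 bases before it and in Pgk1 150 and 131 bases before it. Ldha had the most matches, 5 in 1 window with each E-box read on both strands. A link between matches and the differences between groups was not tested.

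Uptake is represented by Slc2a1, which encodes GLUT1, the widely expressed transporter that supplies the embryo and placenta (ENSMUSG00000028645.11, mm10 chromosome 4, 119108711 to 119137983, plus strand). It was read at 44.2, 18.9 and 23.2 CPM in knockout replicates 1, 2 and 3, against 45.0, 57.0 and 35.0 CPM in wild type replicates 1, 2 and 3. Knockout replicates 2 and 3 lay below every wild type library, while knockout replicate 1 lay within the wild type range. The means were 28.8 ± 13.5 CPM in the knockout and 45.6 ± 11.0 CPM in wild type (SD, n = 3 each), with a log2 fold change of -0.66 ± 0.35 (SE) and adjusted p = 0.407 in edgeR. Without knockout replicate 1 the log2 fold change was -1.12 ± 0.28 (adjusted p = 0.0723), and with knockout replicate 1 alone it was -0.027 ± 0.36. Over all 18 alternatives the fold change stayed negative and the adjusted p lay between 0.0723 and 0.9995. The trophoblast markers were low in the same pair of libraries, knockout replicates 2 and 3, and their part in the result was not tested. The summed yolk sac markers stood at 319, 141 and 161 CPM in knockout replicates 1, 2 and 3, against 545 to 844 CPM in wild type libraries. Sox17, the 1 of these 16 genes with a positive log2 fold change (0.78), held 87.8, 115 and 123 CPM of the knockout sums. The list's median difference from the wild type mean of log2 CPM was -1.04, -5.86 and -5.80 in knockout replicates 1, 2 and 3. The part of the yolk sac was not tested either.

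Hexokinase commits glucose to the cell. Hk2 encodes the inducible form, which is known from muscle, tumours and tissues with high glycolytic demand (ENSMUSG00000000628.10, chromosome 6, 82725025 to 82774454, minus strand). It was read at 225, 338 and 313 CPM in knockout replicates 1, 2 and 3, against 164, 167 and 111 CPM in wild type replicates 1, 2 and 3. All 3 knockout libraries lay above all 3 wild type libraries, and the lowest of them was replicate 1. The means were 292 ± 59.2 CPM in the knockout and 147 ± 31.6 CPM in wild type, a log2 fold change of 0.99 ± 0.24 (SE) with adjusted p = 0.173 in edgeR. Of all genes tested, 2.41% had a smaller p than Hk2. DESeq2 called it (adjusted p = 0.00759), as did edgeR when knockout replicate 1 was left out (log2 fold change 1.14, adjusted p = 0.0498), and the adjusted p spanned 0.00759 to 0.9995 across 18 alternatives. With knockout replicate 1 alone the log2 fold change was 0.63 ± 0.34.

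Hk1 encodes the constitutive hexokinase of most tissues (ENSMUSG00000037012.18, chromosome 10, 62268855 to 62379908, minus strand). Its values were 52.3, 63.9 and 47.8 CPM in knockout replicates 1, 2 and 3, against 47.5, 40.9 and 39.6 CPM in wild type replicates 1, 2 and 3. The groups did not overlap, but only narrowly so, since knockout replicate 3 and wild type replicate 1 were almost level. The means were 54.7 ± 8.27 CPM in the knockout and 42.7 ± 4.26 CPM in wild type (log2 fold change 0.36 ± 0.18 SE, edgeR adjusted p = 0.381). Within a library, the log2 ratio of Hk2 to Hk1 was 2.10, 2.40 and 2.71 in knockout replicates 1, 2 and 3 and 1.78, 2.03 and 1.48 in wild type replicates 1, 2 and 3. The mean ratio was 0.64 higher in the knockout on the log2 scale, with no overlap (two-sided exact permutation test, p = 0.1, adjusted p = 0.25 over 5 ratios). With 3 libraries a group no smaller p than 0.1 is possible. This ratio does not depend on the scaling between libraries.

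The decidual list, whose sum lay below wild type, is given beside Hk2. So are lists with sums above wild type in knockout replicates 2 and 3, as Hk2 was. Of the 14 decidual markers, 6 had every knockout value above wild type (Bmp2, Wnt4, Hoxa10, Hoxa11, Pgr and Dio3), beside 12.1% of all genes tested. For 4 every value lay below (Prl8a2, Erv3, Prl3c1 and Htra1), beside 9.39% of all genes tested. Endothelial markers (10 of 10 above 0 in every library) summed to 3374, 4246 and 3641 CPM in knockout replicates 1, 2 and 3, against 2037 to 3178 CPM in wild type. The skeletal and smooth muscle list summed to 2049, 3573 and 3579 CPM in knockout replicates 1, 2 and 3, against 1168 to 1766 CPM in wild type, with 92.8% of it from Des, which encodes the filament protein desmin. The other 5 tested genes of that list had negative log2 fold changes, and the list's median was -3.51. Myod1, which defines skeletal muscle, was at 0 in every knockout library and in wild type replicates 1 and 2. The uterine natural killer and macrophage list (11 of 12 above 0 in every library) summed to 755 to 1089 CPM in knockout and 383 to 899.9 CPM in wild type libraries, which overlap. The part of these cell types in the Hk2 result was not tested.

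Phosphofructokinase has isoforms from separate genes, and the liver and platelet forms were followed. Pfkp encodes the platelet form (ENSMUSG00000021196.14, chromosome 13, 6579768 to 6648777, minus strand). It was read at 62.3, 70.7 and 68.9 CPM in knockout replicates 1, 2 and 3, against 49.4, 58.0 and 35.8 CPM in wild type replicates 1, 2 and 3. Knockout values were close together and all above wild type, while wild type values spread more widely. The means were 67.3 ± 4.42 CPM in the knockout and 47.7 ± 11.2 CPM in wild type (log2 fold change 0.50 ± 0.21 SE, edgeR adjusted p = 0.319). Its 6 counts shared a divisor of 2, which is also the number of its RefSeq mRNAs, while Hk1, Pfkl, Pkm and Ldha have several such mRNAs and no common divisor. Pitrm1 on the opposite strand overlaps its 3' end and was read at 13.8 to 15.7 CPM in knockout and 9.09 to 19.6 CPM in wild type libraries. How strand was handled in counting is not given in the sources used here.

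Pfkl, the liver form (ENSMUSG00000020277.10, chromosome 10, 77986947 to 78010083, minus strand), had the fewest tags of the 10, from 164 in a library. It stood at 15.6, 12.3 and 11.7 CPM in knockout replicates 1, 2 and 3, against 12.8, 14.2 and 15.7 CPM in wild type replicates 1, 2 and 3. The groups overlapped, with a log2 fold change of -0.11 ± 0.22 (SE, edgeR adjusted p = 0.835) that turned positive, at 0.16, with knockout replicate 1 alone. The log2 ratio of Pfkp to Pfkl was 1.99, 2.52 and 2.55 in knockout replicates 1, 2 and 3 and 1.94, 2.02 and 1.19 in wild type replicates 1, 2 and 3. It was 0.64 higher on average in the knockout (exact permutation test, two-sided, p = 0.2, adjusted p = 0.25), with knockout replicate 1 inside the wild type range. Without wild type replicate 3 the difference was 0.37.

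**Figure D3:**
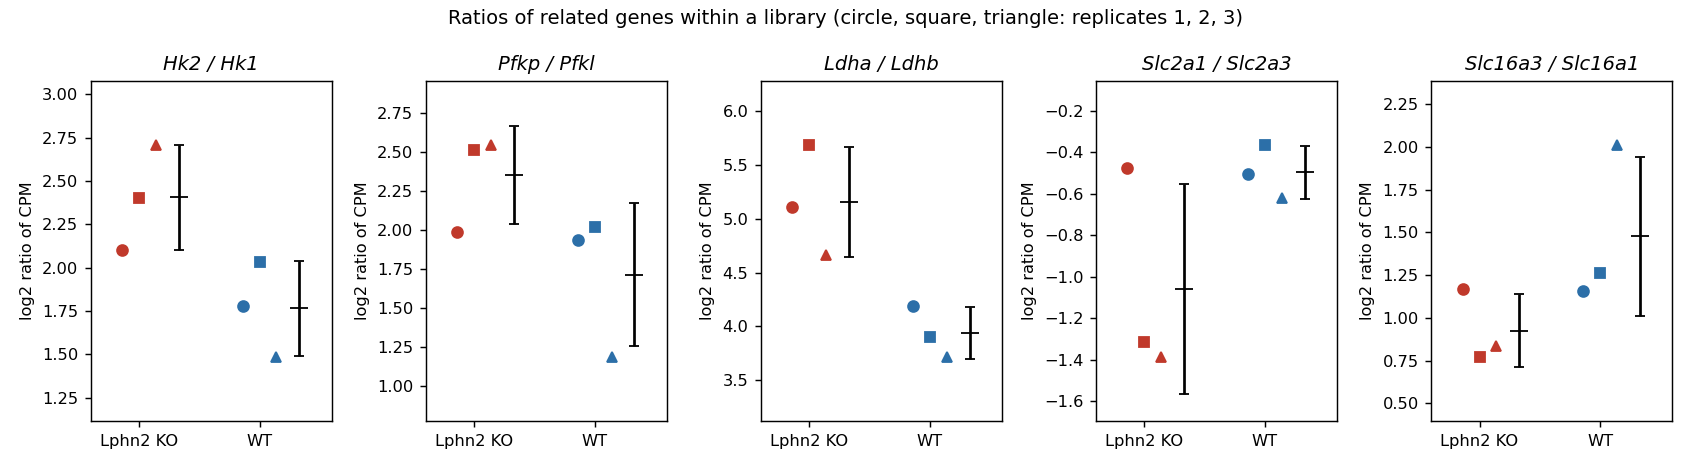
Log2 ratio of the CPM of related genes within each library, for 5 pairs, with axes that do not start at 0. Red symbols on the left are Lphn2 knockout and blue symbols on the right wild type libraries (circle, square and triangle for replicates 1, 2 and 3), with mean ± SD of 3 in black. The groups do not overlap for Hk2 over Hk1 and for Ldha over Ldhb.

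Downstream of phosphofructokinase, the profiles of aldolase and phosphoglycerate kinase lay close to that of Pfkp. Aldoa encodes the main aldolase of the embryo and of muscle (ENSMUSG00000030695.16, chromosome 7, 126795234 to 126800751, minus strand). It was read at 761, 899 and 848 CPM in knockout replicates 1, 2 and 3, against 616, 762 and 534 CPM in wild type replicates 1, 2 and 3. Knockout replicate 1 and wild type replicate 2 were level, and all other knockout values lay above wild type. The means were 836 ± 70.1 CPM in the knockout and 637 ± 115 CPM in wild type (log2 fold change 0.39 ± 0.19 SE, edgeR adjusted p = 0.377). The 6 counts of Aldoa shared a divisor of 3, the number of its RefSeq mRNAs. Its retrogene Aldoart1, which can share its reads, was read at 8.12 to 11.0 CPM in knockout and 7.21 to 13.8 CPM in wild type libraries.

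Pgk1, on the X chromosome, encodes the first enzyme of the pathway to return ATP (ENSMUSG00000062070.12, 106187100 to 106203699, plus strand). Its values were 65.8, 81.3 and 82.1 CPM in knockout replicates 1, 2 and 3, against 57.7, 62.9 and 51.6 CPM in wild type replicates 1, 2 and 3. No wild type library reached the lowest knockout library. The means were 76.4 ± 9.18 CPM in the knockout and 57.4 ± 5.70 CPM in wild type (log2 fold change 0.41 ± 0.17 SE, edgeR adjusted p = 0.309). Without knockout replicate 1 its log2 fold change was 0.51, and with that replicate alone it was 0.22, neither past the threshold.

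Pgam1, phosphoglycerate mutase, and Pkm, pyruvate kinase of the embryo and most adult tissues, were the steadiest of the 10. Pgam1 (ENSMUSG00000011752.7, chromosome 19, 41911923 to 41918660, plus strand) was read at 121, 115 and 115 CPM in knockout replicates 1, 2 and 3, against 115, 125 and 109 CPM in wild type replicates 1, 2 and 3. Its log2 fold change was 0.00995 ± 0.15 (SE, edgeR adjusted p = 0.982), smaller than its error. Pkm (ENSMUSG00000032294.17, chromosome 9, 59656368 to 59679375, plus strand) was read at 229, 235 and 247 CPM in knockout replicates 1, 2 and 3, against 217, 234 and 197 CPM in wild type replicates 1, 2 and 3. The lowest knockout library lay below the highest wild type library, with means of 237 ± 9.14 CPM in the knockout and 216 ± 18.6 CPM in wild type (log2 fold change 0.13 ± 0.15 SE, adjusted p = 0.706). The counts are per symbol, so the M1 and M2 forms of pyruvate kinase, which differ by an exon inside the gene, were not told apart.

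Ldha, which makes lactate (ENSMUSG00000063229.15, chromosome 7, 46841475 to 46855627, plus strand), was read at 537, 417 and 395 CPM in knockout replicates 1, 2 and 3, against 501, 520.1 and 399 CPM in wild type replicates 1, 2 and 3. As for Slc2a1, knockout replicate 1 was higher than replicates 2 and 3, here as the highest of all 6 libraries. The means were 449.7 ± 76.4 CPM in the knockout and 473 ± 64.9 CPM in wild type (log2 fold change -0.074 ± 0.20 SE, edgeR adjusted p = 0.882). With knockout replicate 1 alone the log2 fold change was 0.20, and without that replicate it was -0.22. Ldhb, which favours the return of lactate to pyruvate, was read at 15.5, 8.00 and 15.5 CPM in knockout replicates 1, 2 and 3, against 27.3, 34.7 and 30.4 CPM in wild type replicates 1, 2 and 3. All knockout libraries lay below all wild type libraries, with a log2 fold change of -1.25 ± 0.29 (SE, edgeR adjusted p = 0.172, DESeq2 adjusted p = 0.00608). Its log2 fold change was -1.39 without knockout replicate 1 and -0.97 with it alone, neither called. In annotated transcripts, 29.2% of the 50-letter runs near the 3' end of Ldhb also stand in its pseudogene Gm5514, so its values are uncertain as to that copy. The log2 ratio of Ldha to Ldhb was 5.11, 5.69 and 4.67 in knockout replicates 1, 2 and 3 and 4.19, 3.90 and 3.71 in wild type replicates 1, 2 and 3. It was 1.22 higher on average in the knockout, with no overlap (exact permutation test, two-sided, p = 0.1, adjusted p = 0.25).

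**Figure D4:**
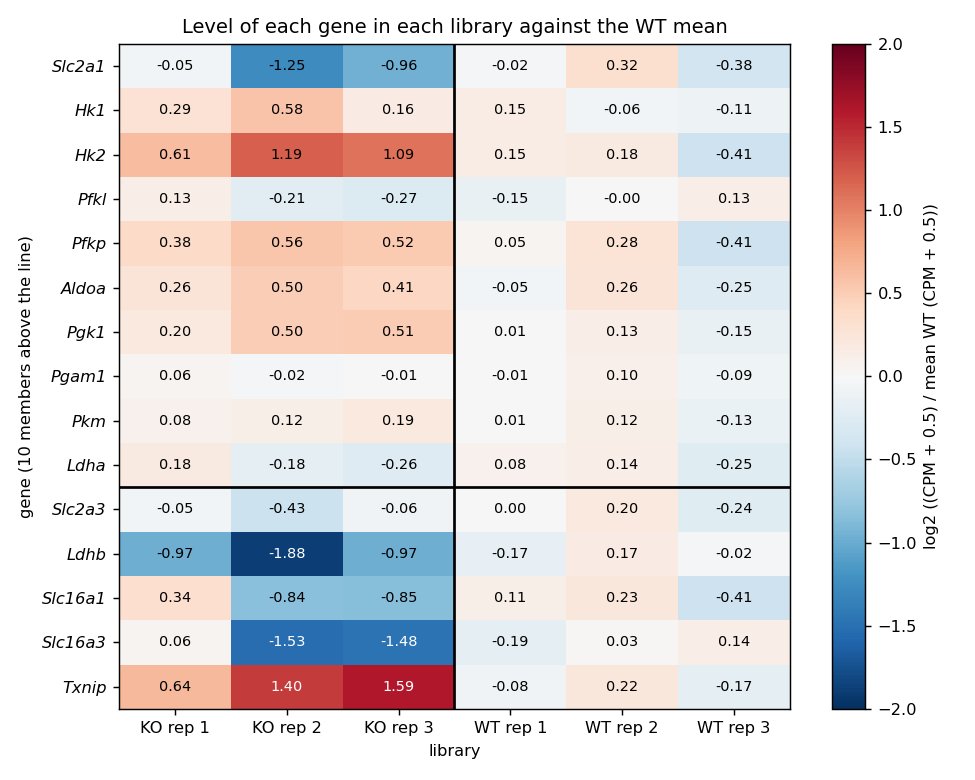
Level of each gene in each library against the wild type mean, as log2 of (CPM + 0.5) over the mean of wild type (CPM + 0.5), with knockout libraries on the left and the value written in each cell. The 10 genes stand above the line in pathway order and 5 other genes of transport, lactate and flux control below it. Slc2a1, Slc16a1 and Slc16a3 are lowest in knockout replicates 2 and 3, at -1.25 and -0.96 for Slc2a1, while Hk2 and Txnip are high in all 3 knockout libraries.

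The 10 genes thus differed among themselves in how knockout replicate 1 compared with replicates 2 and 3. On log2 CPM, replicate 1 exceeded the mean of replicates 2 and 3 by 1.07 for Slc2a1, 0.40 for Ldha and 0.38 for Pfkl. It was lower than that mean for Hk2 (-0.53), Pgk1 (-0.31), Aldoa (-0.20) and Pfkp (-0.16). For Hk1, Pkm and Pgam1 the difference was -0.079, -0.072 and 0.073. The median over the 10 genes of the difference from the wild type mean was 0.20, 0.31 and 0.18 in knockout replicates 1, 2 and 3. Among the wild type libraries that median ranged from -0.19 (replicate 3) to 0.14 (replicate 2), with replicate 1 at 0.012. Wild type replicate 2 thus lay near knockout replicates 1 and 3, and the wild type libraries differed widely among themselves. The same median over all 13848 genes tested lay between -0.013 and 0.018 in the knockout libraries. Leaving out knockout replicate 1 gave 6 of the 10 with every knockout value above wild type (22.4% of all genes) and 2, Slc2a1 and Pfkl, with every value below (23.5% of all genes). With knockout replicate 1 alone, 5 of the 10 lay above every wild type library (23.4% of all genes) and 0 below (21.2% of all genes).

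**Figure D5:**
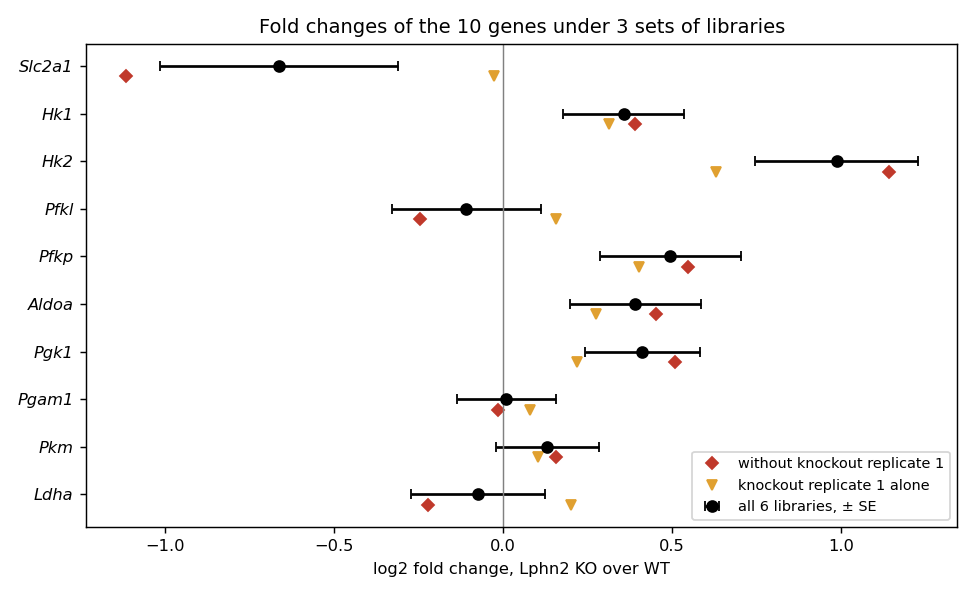
Log2 fold change of the 10 genes, Lphn2 knockout over wild type, in pathway order. Black points with bars are the fit to all 6 libraries ± SE, red diamonds the fit without knockout replicate 1 and yellow triangles the fit with knockout replicate 1 alone. For Hk2 the 3 values are 0.99, 1.14 and 0.63, and for Slc2a1 they are -0.66, -1.12 and -0.027.

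Likeness between profiles was measured as the root mean square difference of log2 CPM over the 6 libraries, each gene centred on its own mean. Among the 10, Aldoa and Pgk1 (0.084) and Pgam1 and Pkm (0.083) were the closest pairs, followed by Aldoa and Pfkp (0.098). Slc2a1 stood farthest off, with 0.42 to its nearest of the others, Ldha, and 1.03 to Hk2. Among 9802 other genes with a mean of at least 5 CPM, Cerk (0.057) and Tor3a (0.065) were nearest to Hk2. Paf1 (0.029) and Ptpn11 (0.040) were nearest to Pgk1, and Nat9 (0.055) and Tiparp (0.065) to Pfkp. The mean profile of the 10 was nearest to Aebp2 (0.020), Psma5 (0.023) and Reep3 (0.032).

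Beyond the 10 genes, 9 lists of the surrounding pathways held 108 genes, of which 89 were tested and 0 passed the threshold in either direction in edgeR. By unadjusted p below 0.05 there were 6 of the 89 on the higher and 4 on the lower side (8.68% and 6.86% of all genes). Every knockout value lay above wild type for 11 and below it for 5 (12.1% and 9.39% of all genes), so these shares lie near or below those of all genes. DESeq2 called Txnip higher and Eno3, Ldhb and Adm lower, 4 in all. Without knockout replicate 1, edgeR called 2 higher, Txnip and Pcx, and among those lower was Slc16a3. Among 15 other glycolytic enzymes (median log2 fold change -0.49), the smallest p-values after Ldhb belonged to Eno3, the muscle enolase, and Bpgm, the red cell enzyme that regulates haemoglobin. Eno3 stood at 2.93 ± 1.01 CPM in knockout and 8.66 ± 3.27 CPM in wild type libraries, and Bpgm at 5.94 ± 1.44 and 10.6 ± 3.37 CPM in knockout and wild type (log2 fold changes -1.57 and -0.83). Eno3 had a DESeq2 adjusted p of 0.0307, and its log2 fold change was -1.30 without knockout replicate 1 and -2.27 with it alone. Primitive erythroid markers summed to 1501, 1321 and 835 CPM in knockout replicates 1, 2 and 3, against 3782 to 6529 CPM in wild type libraries. Hba-a1 made up 61.9% of the sum over all libraries. The list's median difference from the wild type mean of log2 CPM was -1.26, -4.68 and -4.97 in knockout replicates 1, 2 and 3. The part of these markers in the Bpgm value was not tested.

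Among 9 other glucose transporters (median -0.37), Slc2a3, which encodes the high-affinity GLUT3, was read at 61.4, 47.0 and 60.9 CPM in knockout replicates 1, 2 and 3, against 63.9, 73.3 and 53.9 CPM in wild type replicates 1, 2 and 3. The log2 ratio of Slc2a1 to Slc2a3 was -0.48, -1.31 and -1.39 in knockout replicates 1, 2 and 3 and -0.51, -0.36 and -0.62 in wild type replicates 1, 2 and 3 (exact permutation test, two-sided, p = 0.3, adjusted p = 0.3). The difference of the means was -0.56, and -0.85 without knockout replicate 1. Slc2a12 (log2 fold change 0.61), Slc2a4 of muscle and fat (-3.31) and Slc2a10 (-1.30) had the smallest p-values of this list, and the last pair averaged under 5 CPM in each group.

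Export of lactate runs through monocarboxylate transporters. Slc16a3, the form typical of glycolytic cells, was read at 157, 52.0 and 53.9 CPM in knockout replicates 1, 2 and 3, against 132, 154 and 166 CPM in wild type replicates 1, 2 and 3. Slc16a1, the widespread form, was read at 69.7, 30.5 and 30.2 CPM in knockout replicates 1, 2 and 3, against 59.3, 64.2 and 41.0 CPM in wild type replicates 1, 2 and 3. Both transporters were thus low in knockout replicates 2 and 3 and not in replicate 1, as Slc2a1 was. Without knockout replicate 1, Slc16a3 was lower (log2 fold change -1.51 ± 0.19 SE, edgeR adjusted p = 0.0193), and over all libraries it was not called (-0.78 ± 0.44, adjusted p = 0.431). In the mouse placenta both are known from the syncytiotrophoblast, and the part of the trophoblast in these values was not tested. The log2 ratio of Slc16a3 to Slc16a1 differed by -0.55 between knockout and wild type means (exact permutation test, two-sided, p = 0.2, adjusted p = 0.25), and by -0.29 without wild type replicate 3. Emb, which encodes embigin, a chaperone of monocarboxylate transporters, stood at 46.4 ± 4.44 CPM in the knockout and 38.2 ± 8.48 CPM in wild type.

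Control of glucose use is represented by Txnip, an arrestin-like protein that restrains glucose uptake by GLUT1 and is itself induced by glucose. It was read at 1451, 2454 and 2810 CPM in knockout replicates 1, 2 and 3, against 881, 1085 and 824 CPM in wild type replicates 1, 2 and 3. All knockout libraries lay above all wild type libraries, with a log2 fold change of 1.27 ± 0.28 (SE, edgeR adjusted p = 0.166). DESeq2 called Txnip (adjusted p = 0.00096), and edgeR did so when knockout replicate 1 was left out (log2 fold change 1.501, adjusted p = 0.027). With knockout replicate 1 alone the log2 fold change was 0.66. Its relative Arrdc4 had a log2 fold change of 0.52 and Ppp1r3c, which targets a phosphatase to glycogen, one of 1.37 (1.65 without knockout replicate 1 and 0.66 with it alone), none past the threshold.

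In edgeR with all 6 libraries, the remaining lists held 0 called genes. The median log2 fold change was 0.36 over 8 genes of the pentose phosphate pathway, where G6pdx, its entry enzyme, stood at 11.8 ± 3.05 CPM in the knockout and 6.92 ± 0.150 CPM in wild type (0.77, and 0.97 without knockout replicate 1 and 0.30 with it alone), beside Pgd (0.47) and H6pd (0.60). It was 0.39 over 9 genes of glycogen metabolism, led by the phosphorylase Pygl (0.51), with Ugp2 (0.44) and Gyg (0.40). Over 4 genes of gluconeogenesis it was 0.54, with Pcx (0.74), G6pc3 (0.59) and Pck2 (0.48). Pcx, which encodes pyruvate carboxylase, stood at 23.7, 51.6 and 50.8 CPM in knockout replicates 1, 2 and 3, against 22.2 to 27.2 CPM in wild type. Its log2 fold change was 1.03 without knockout replicate 1 (edgeR adjusted p = 0.036) and -0.062 with that replicate alone. Over 12 genes of pyruvate entry to mitochondria it was 0.12, with Pdk1 (-0.69), Pdhb (0.32) and Dlat (0.29). Over 20 hypoxia factors and targets it was 0.0018, with Ndrg1 at 136 ± 7.09 CPM in the knockout and 75.6 ± 27.8 CPM in wild type (0.84), Adm at 178 ± 82.4 and 547 ± 334 CPM in knockout and wild type (-1.62) and P4ha1 (0.34). Adm, which encodes adrenomedullin, was called by DESeq2 (adjusted p = 0.0236), and its log2 fold change was -2.07 without knockout replicate 1 and -0.996 with it alone. Hif1a, named outside the rule, stood at 63.6 to 73.1 CPM in knockout and 54.2 to 78.1 CPM in wild type libraries.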

How the data were processed

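The deposited values were whole-number counts of 3' end tags per gene symbol, 1 table per sample, which the authors left without normalization. Libraries were made with a Lexogen QuantSeq kit from 500 ng of Trizol-extracted RNA, per the labels' protocols. Bowtie2, edgeR and the build mm10 are named per the submitters' processing notes. Not given in the sources used here: their versions, the annotation, the counting program and the handling of strand and of reads with several matches. A common divisor above 1 ran through the 6 counts of 19.9% of the 11680 genes with at least 10 counts in every library, and of 2 of the 10 genes described.

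The filter on low counts was edgeR's filterByExpr with its minimum at 10 counts (version 4.0.16), libraries were scaled by TMM, and knockout was tested against wild type by the quasi-likelihood test with no covariate on all 6 libraries. CPM are counts scaled to the effective library size by edgeR's cpm function, with no division by length, so CPM of different genes do not rank their RNA levels. Standard errors (SE) belong to log2 fold changes. For edgeR they were derived as the absolute log2 fold change divided by the square root of the test's F statistic. Log2 CPM had a prior count of 2. Ratios of 5 gene pairs were compared by exact permutation over libraries. Alternatives used other scalings, other filters, DESeq2 1.42.0, limma 3.58.1 (voom), the replicate number as a block, other sets of libraries, the divisor removed, and counts without Rn45s or without decidual and trophoblast markers. The script was tested on simulated data as a check of the code, with a fixed dispersion that was not estimated from these data. Gene positions were looked up by symbol in GENCODE M21 (mm10). Computation used R 4.3.3, Python 3.11.15, pandas 2.3.3, numpy 2.4.6 and matplotlib 3.10.9.

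Groups come from the labels. All 10 genes are named in every sample, and of each other list the 3 tested genes with the smallest p, since none passed. Genes in a ratio are also named. The 10 genes, the lists and the rules were chosen with earlier results of these data known.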

Additional observations from a re-analysis of the deposited data

How the results depend on the processing

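Of 180 recomputed fold changes of the 10 genes, over 18 alternatives each, 169 kept their direction and their side of the threshold. Hk2 passed the threshold under 2 of them. Pgam1 reversed to -0.0055 with DESeq2 size factors, -0.014 with the stricter filter (3 libraries at 5 CPM or more) and -0.0049 with DESeq2, and ranged from -0.038 to 0.073 when 1 library was left out. Ldha reversed to 0.20 and Pfkl to 0.16 with knockout replicate 1 alone, and Ldha ranged from -0.22 to 0.020 when 1 library was left out. Each reversed value is smaller than its error. Over all genes, 0 were higher and 7 lower, which became 470 and 387 with DESeq2, 0 and 0 with the replicate block, and 0 and 0 with knockout replicate 1 alone. Leaving out 1 library gave 0 to 252 higher and 0 to 466 lower, with both highest counts without knockout replicate 1. Of the 10 genes, 1 was higher with DESeq2 and 0 to 1 when 1 library was left out. The genes with every knockout value below wild type numbered 0 to 2 (11.5% to 23.5% of all genes) and those above 4 to 6 (13.7% to 22.4% of all genes) when 1 library was left out, alternatives chosen after seeing the data. Without wild type replicate 1, whose sample code begins with 32 where the others begin with 45, 0 genes were called and Hk2 had a log2 fold change of 1.07 (adjusted p = 0.345). The meaning of the code is not stated. The 5 ratios kept their direction under all alternatives run. No pairing of same-numbered libraries is stated on the labels. Their deviations from the group means correlated at 0.13, -0.024 and 0.071 over genes, against -0.11 to 0.067 for libraries with different numbers. Not every library was closest to its own number, and whether they are paired is not known. With the replicate block Hk2 had a log2 fold change of 0.99 (adjusted p = 0.228). The causes of these shifts were not tested.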

Other observations

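Gapdh, glyceraldehyde 3-phosphate dehydrogenase, stood at 18.8 ± 2.40 CPM in knockout and 16.6 ± 1.79 CPM in wild type libraries, and Eno1, the main enolase of the embryo, at 8.32 ± 1.63 and 10.1 ± 1.13 CPM in knockout and wild type (SD, n = 3 each). Both genes were named after their values were seen. Of the distinct runs of 50 letters in the last 500 bases of their coding transcripts in GENCODE M21, 63.2% for Gapdh and 68.1% for Eno1 also stood, on either strand, in transcripts of at least 1 other gene, 201 genes for Gapdh, of which 191 were pseudogenes. The same share was 0% for Slc2a1, Hk1, Hk2, Pfkl and Pgam1, 7.32% for Pgk1, 9.22% for Aldoa, 12.8% for Ldha and 19.3% for Pkm and 29.2% for Ldhb, mostly with pseudogenes. For Pfkp it was 27.5%, all with Pitrm1 on the opposite strand. Not given in the sources used here are the read length and the treatment of reads with several matches, so the values of Pgk1, Aldoa, Ldha, Pkm and Ldhb are uncertain as to their copies. For Hk2, Hk1 and Slc2a1 no such run was shared.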
